A study of Gallus gallus with 5 samples.

Results

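The genes described here act at the G1/S transition and in DNA replication. A gene belonged to the set when a probe on the array carried a RefSeq accession whose symbol is on a list of 37 such genes; 21 of the 37 had a named probe, with 42 probes in all, out of 5381 genes with a named probe on the array. The other 16 (MCM4, MCM7, MCM10, CDC6, CDT1, CDC45, GINS2, GINS3, GINS4, POLA1, POLA2, PRIM1, LIG1, RRM2, TYMS and E2F3) were not analysed here. All 21 measured genes were well above background on all 5 arrays, so none had to pass through the array where it was high.

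Replication starts at origins that the origin recognition complex marks in G1, where CDC6 and CDT1 load the MCM helicase. Cyclin E with its kinase, and transcription factors of the E2F family, drive cells into S phase, and E2F factors are known to raise transcription of many replication genes. At the fork, primase and the polymerases copy the strands behind the helicase, the clamp PCNA and its loader RFC hold the polymerases on the template, and claspin and the TIMELESS-TIPIN complex relay stalled forks to the checkpoint kinases.

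RNA came from DT40, a chicken B cell line derived from a bursal lymphoma, with 1 one-colour Agilent array for each of 5 lines. DKO lacks functional copies of the genes that encode the H2A.Z.1 and H2A.Z.2 isoforms of a histone H2A variant, H2A.Z. DKO+H2A.Z.1 is this knockout with stable expression of H2A.Z.1, DKO+5KR-H2A.Z expresses the mutant called 5KR-H2A.Z, DKO+H2A-H2A.Z expresses the mutant called H2A-H2A.Z, and WT is the wild-type clone cl18. All 5 cultures received tetracycline at 2 µg/ml for 72 hours, which the labels give as the means to shut off a repressible H2A.Z.1 transgene. The title of the series asks what the N-terminal tail of H2A.Z contributes. The labels of the DKO array conflict, since its description and genotype match those given for DKO+H2A.Z.1; the name DKO follows its title.

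With 1 array per line no test was possible, and each value describes these arrays. DKO, DKO+H2A.Z.1 and WT shared a slide, and the arrays of the mutant lines DKO+5KR-H2A.Z and, beside it, DKO+H2A-H2A.Z lay on a second one. Line and slide therefore cannot be told apart wherever a mutant line is set against any of the other 3. H2AFZ, the gene for H2A.Z.1, had levels of 1.11 in DKO, 0.81 in DKO+H2A.Z.1, 1.24 in DKO+5KR-H2A.Z, 0.92 in DKO+H2A-H2A.Z and 5.87 in WT, on its probe A_87_P037084, where a level is the log2 signal minus the 75th percentile of the array. Its other probe gave -0.37 in DKO, -0.31 in DKO+H2A.Z.1, -0.20 in DKO+5KR-H2A.Z, -0.46 in DKO+H2A-H2A.Z and 6.17 in WT. WT stood apart from the lines made from the knockout on both probes, and DKO+H2A.Z.1 was not separated from DKO, so the gene does not settle the conflicting label. Where the probes lie relative to the deletion or to the expressed constructs was not analysed here. Of the B cell markers 11 were well above background on all arrays, and CD79A and BLNK had no named probe. Of T cell markers 4 of 5 were also well above background on all arrays, with CD4 on none, as were 3 of 4 myeloid, 2 of 4 fibroblast and 1 of 2 erythroid markers; their part in the differences given here was not tested. Between 29137 spots (DKO) and 30574 spots (WT) were well above background.

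Most replication genes had similar levels on the 5 arrays. The RNA is from whole cultures, so fewer cells in a phase of the cycle and less RNA per cell cannot be told apart. DKO minus WT was the comparison with the widest differences, and there claspin (CLSPN) and cyclin E1 (CCNE1) stood lowest while cyclin E2 (CCNE2) and TIPIN stood highest. The median over all genes was 0.15 for DKO minus WT, -0.21 for DKO+H2A.Z.1 minus DKO and -0.04 for DKO+H2A.Z.1 minus WT on the log2 scale, and under other scalings it ran from -0.35 to 0.33 for DKO minus WT. Differences are therefore also given relative to that median, and the words higher and lower refer to the relative value unless a fold is named. Replicate spots had a median SD of up to 0.0747 within an array. Where a gene had several probes (13 of the 21), their values for DKO minus WT spanned 0.08 at the median and at most 0.57 (MCM6). The median was 0.16 for DKO+H2A.Z.1 minus DKO, 0.10 for DKO+H2A.Z.1 minus WT and 0.06 between the mutant lines. Against DKO+H2A.Z.1 it was 0.23 for DKO+5KR-H2A.Z and 0.19 for DKO+H2A-H2A.Z. In the last of these all probes of a gene had the same sign for only 4 of the 13. The main probe of a gene is the one with the highest mean level.

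**Figure D1:**
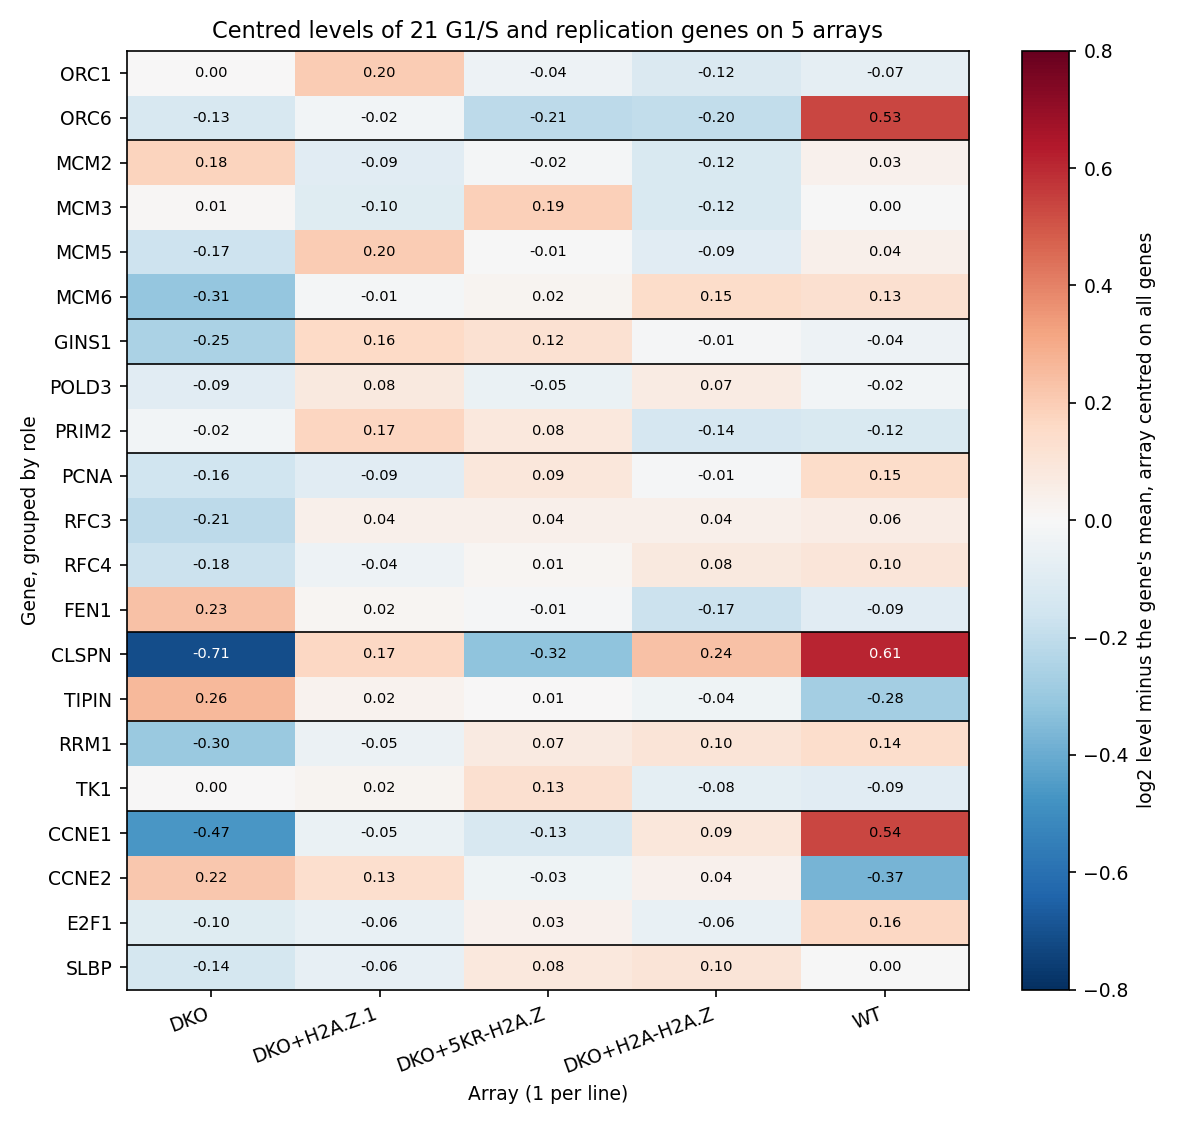
Level of the 21 genes on 5 arrays, as the log2 level minus the gene's mean over arrays, with each array centred on the median of all genes; rows are grouped by role and each cell prints its value. CLSPN (-0.71 in DKO, 0.61 in WT) and CCNE1 (-0.47 in DKO, 0.54 in WT) show the widest contrasts. DKO, DKO+H2A.Z.1 and WT share a slide.

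The median of the 21 genes stood a little lower in DKO than in WT relative to all genes. That of 26 other replication genes did not, with 16 of them above the median of all genes and 10 below. Among the 21, the median difference was -0.04, against 0.15 over all 4417 genes compared, or -0.19 relative to that median of all genes, with 13 genes below and 8 above the median of all genes. By definition 2208 of all genes lie on each side of it, and whether either list departs from an even split was not tested. At 2-fold, 1 of 21 was lower (CLSPN) where 11.1% of all genes were, and 0 of 21 were higher where 4.21% were. At 1.5-fold, 2 were lower (CLSPN and CCNE1) where 17.2% of all genes were and 2 were higher (CCNE2 and TIPIN) where 14.1% were. The share past 1.5-fold in either direction was thus 4 of 21 against 31.3% of all genes, so large differences were not more frequent among these genes than on the array as a whole. CLSPN and CCNE1 were past 1.5-fold under all 9 processing alternatives, whereas CCNE2 and TIPIN were under it in 4 of the 9 (quantile normalization, cyclic loess, spike-in scaling and the authors' value table). Not all of the 9 could change these calls. The filters on dim probes leave the fold of a gene as it is. The median over probes does so too for CCNE1, CCNE2 and TIPIN, which have 1 probe each. Relative to the median of all genes, 3 were 1.5-fold lower (CLSPN, CCNE1 and ORC6) where 20.8% of all genes were, and 1 was 1.5-fold higher (CCNE2) where 8.58% were. Of the 9 alternatives, 3 (median centring, spike-in scaling and the authors' value table) shift a whole array and cannot move a relative difference. Under the other 6 its sign was the same for 18 of the 21, with MCM2, MCM3 and PRIM2 as the exceptions. Several of these 6 could hardly turn a sign. The filters on dim probes change only the median of all genes and moved relative values by at most 0.015 and 0.051. For the 8 genes with 1 probe, the median over probes likewise changes only the median of all genes.

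Brightness of the probes bears on this comparison. When the 4121 genes well above background on all arrays were split into 4 classes by mean signal, the median for DKO minus WT was 0.16 relative to all genes in the brightest class and -0.11 in the dimmest. Of the 21 replication genes 10 lay in the brightest class, with a median of -0.16 there, and 7 in the next, with -0.05 against 0.02 for all genes of that class. The class next to the dimmest held 3, with -0.26 against -0.13 for all its genes, and the dimmest held 1 of the 21, CCNE1. For DKO+H2A.Z.1 minus DKO the medians of all genes ran the other way, -0.16 in the brightest class and 0.09 in the dimmest. There the 10 replication genes of the brightest class had a median of 0.08. The part of signal strength in these differences was not tested further.

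**Figure D2:**
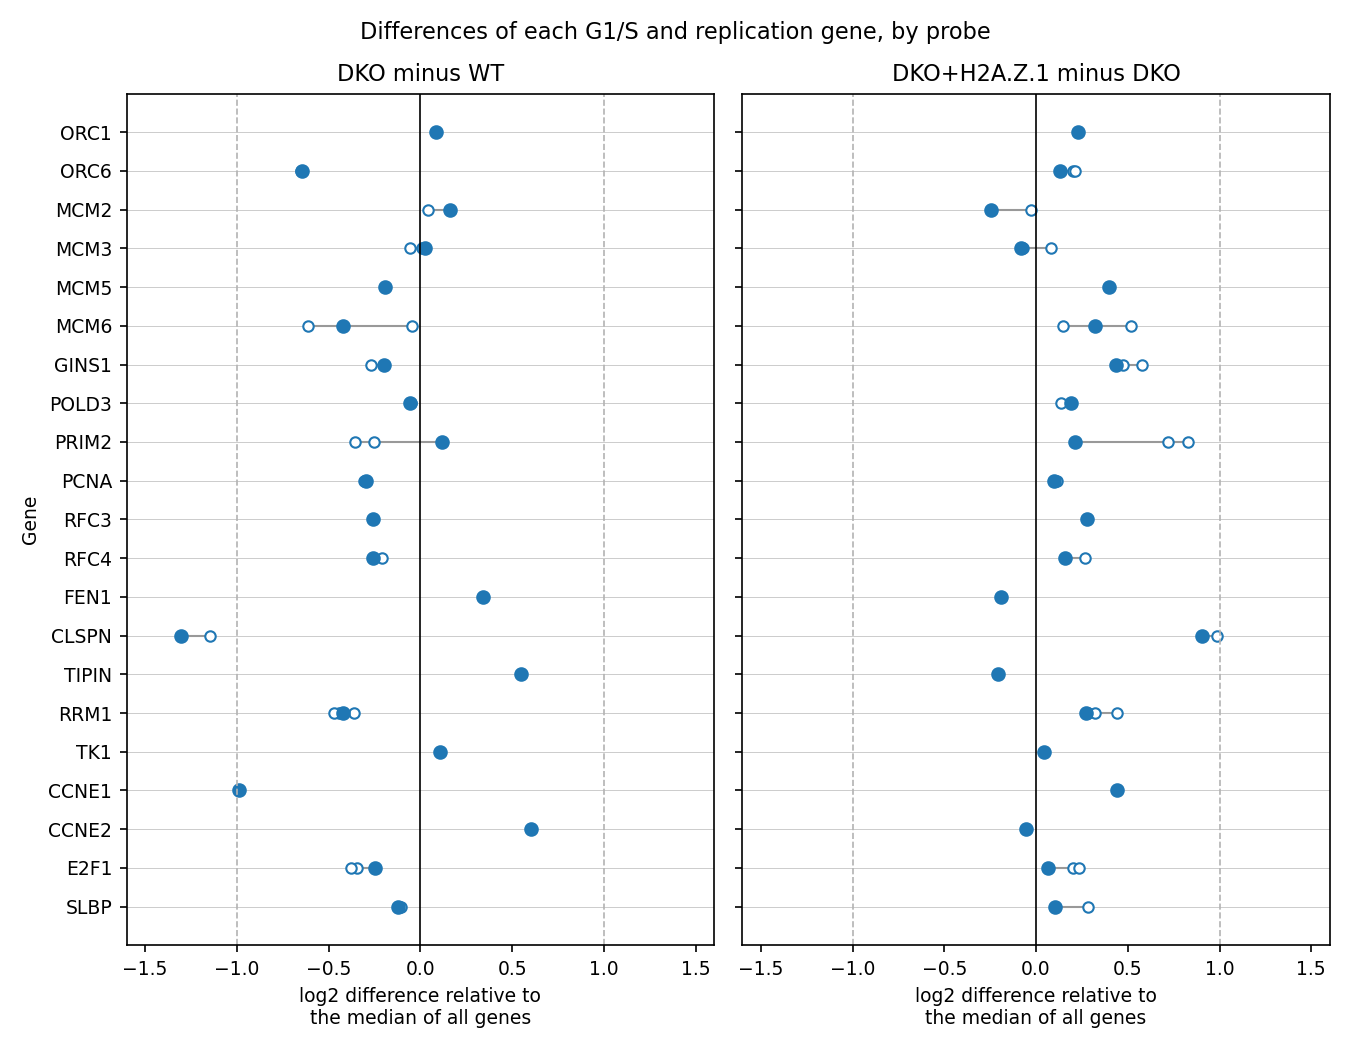
Log2 difference of each gene relative to the median of all genes, for DKO against WT (left) and for DKO+H2A.Z.1 against DKO (right). Filled circles are the main probe, open circles the other probes of the gene, grey lines span them, and dashed lines mark 2-fold. CLSPN lies past the dashed line on both probes for DKO minus WT, and 16 of 21 genes lie to the right of 0 for DKO+H2A.Z.1 minus DKO.

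Of the origin recognition genes, ORC6, a subunit of the origin recognition complex, was lower in all lines made from the knockout. Its level was 2.54 in DKO, 2.46 in DKO+H2A.Z.1, 2.37 in DKO+5KR-H2A.Z, 2.33 in DKO+H2A-H2A.Z and 3.03 in WT. The 4 derived lines lay within 0.21 of each other and WT stood apart, with the mutant lines on the other slide. DKO was 1.41-fold below WT (-0.49, or -0.64 relative to all genes) and DKO+H2A.Z.1 was 1.48-fold below WT (-0.57, or -0.53 relative). All 3 probes of ORC6 gave nearly the same value for DKO minus WT, between -0.50 and -0.49. ORC1, the largest subunit of that complex, ran from 1.88 in DKO+H2A-H2A.Z to 2.15 in DKO+H2A.Z.1, with 2.13 in DKO and 1.89 in WT, so that it did not share the low level of ORC6.

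The helicase subunits MCM2, MCM3, MCM5 and MCM6, which sit in the same hexameric ring, did not stand on the same side. MCM6 was lower in DKO than in WT, at 2.07 in DKO, 2.18 in DKO+H2A.Z.1, 2.31 in DKO+5KR-H2A.Z, 2.38 in DKO+H2A-H2A.Z and 2.34 in WT. Its relative difference for DKO minus WT was -0.42, but its probes disagreed, with -0.46, -0.27 and 0.10 before the median of all genes was taken off. MCM2 was highest in DKO, at 5.81, against 5.36 in DKO+H2A.Z.1, 5.53 in DKO+5KR-H2A.Z, 5.37 in DKO+H2A-H2A.Z and 5.50 in WT. The excess over WT was 1.24-fold (0.31, or 0.16 relative to all genes) in the main processing. Over the 10 settings, the main one included, the difference ran from -0.19 to 0.49 and was above 0 in 7. The sign of the relative difference turned under 1 alternative. MCM5 had 1.22 in DKO, 1.40 in DKO+H2A.Z.1, 1.29 in DKO+5KR-H2A.Z, 1.16 in DKO+H2A-H2A.Z and 1.26 in WT.

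MCM3 was the helicase subunit that parted the mutant lines most. Its level was 4.48 in DKO+5KR-H2A.Z, against 4.12 in DKO+H2A-H2A.Z, which share a slide; DKO had 4.39, DKO+H2A.Z.1 4.10 and WT 4.21. The difference between the mutant lines was 0.36 on the main probe (1.29-fold) and between 0.36 and 0.37 on all 3 probes, or 0.31 relative to all genes.

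GINS1, a subunit of the GINS complex that activates the loaded helicase, was the only gene of its role with a named probe. It stood at 3.80 in DKO, 4.03 in DKO+H2A.Z.1, 4.09 in DKO+5KR-H2A.Z, 3.91 in DKO+H2A-H2A.Z and 3.85 in WT. Relative to all genes it was -0.20 for DKO minus WT, against 0.44 for DKO+H2A.Z.1 minus DKO, and each of its 3 probes was higher in DKO+H2A.Z.1 than in DKO, by 0.23 to 0.37 before the median of all genes was taken off.

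Of the primase and polymerase genes, POLD3, an accessory subunit of polymerase delta, had the smallest span of the 21 genes on the main probe: its centred level spanned 0.16 over the 5 arrays, but 0.36 on its other probe. It had 1.35 in DKO, 1.34 in DKO+H2A.Z.1, 1.30 in DKO+5KR-H2A.Z, 1.37 in DKO+H2A-H2A.Z and 1.26 in WT. PRIM2, the large subunit of primase, had 0.20 in DKO, 0.21 in DKO+H2A.Z.1, 0.22 in DKO+5KR-H2A.Z, -0.05 in DKO+H2A-H2A.Z and -0.07 in WT. Its 3 probes disagreed: for DKO+H2A.Z.1 minus DKO the main probe gave 0.01 and the others 0.51 and 0.62.

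Among the genes of the clamp, its loader and Okazaki fragment processing, 3 of 4 were lower in DKO than in WT relative to all genes and FEN1 was higher. PCNA had 4.39 in DKO, 4.28 in DKO+H2A.Z.1, 4.56 in DKO+5KR-H2A.Z, 4.41 in DKO+H2A-H2A.Z and 4.54 in WT; both of its probes were lower in DKO, by 0.14 and 0.16. The loader subunits RFC3 and RFC4 were -0.26 each for DKO minus WT relative to all genes, with RFC3 at 1.06 in DKO and 1.17 in WT and RFC4 at 4.21 in DKO and 4.31 in WT. FEN1, the nuclease that trims flaps between Okazaki fragments, had 4.03 in DKO, 3.63 in DKO+H2A.Z.1, 3.69 in DKO+5KR-H2A.Z, 3.48 in DKO+H2A-H2A.Z and 3.54 in WT. DKO was thus the highest of the 5 arrays for FEN1 in the main processing, 1.41-fold above WT (0.49, or 0.34 relative to all genes) on its only probe. Over the processing settings this difference ran from -0.007 to 0.67, and the relative difference from 0.23 to 0.34.

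The fork checkpoint genes CLSPN and TIPIN stood on opposite sides. CLSPN, the adaptor through which the kinase ATR activates CHK1 at stalled forks, had -0.46 in DKO, 0.23 in DKO+H2A.Z.1, -0.16 in DKO+5KR-H2A.Z, 0.34 in DKO+H2A-H2A.Z and 0.69 in WT. DKO was lowest and WT highest, and the widest span over the 5 arrays among the 21 genes, 1.32 on the centred scale, was that of CLSPN. It was 2.22-fold lower in DKO than in WT on the main probe (-1.15, or -1.30 relative to all genes) and -0.996 on its other probe. That other probe was the dimmest of the 21 genes, at -4.58 in DKO and -3.58 in WT, though well above background on all 5 arrays. DKO+H2A.Z.1 was 1.62-fold above DKO (0.69, or 0.90 relative), with 0.78 on the other probe, and lay 1.37-fold below WT on the main probe (-0.46) and 1.16-fold below it on the other (-0.22). Under the alternatives the difference between DKO and WT ranged from -1.65 to -0.97 and that between DKO+H2A.Z.1 and DKO from 0.55 to 1.24.

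CLSPN also parted the mutant lines from each other. Within their slide DKO+5KR-H2A.Z was 1.42-fold below DKO+H2A-H2A.Z (-0.51, or -0.56 relative to all genes), the lowest value of the 21 genes in that comparison, and the other probe gave -0.39. Across slides DKO+5KR-H2A.Z was 1.31-fold below DKO+H2A.Z.1 (-0.39) and DKO+H2A-H2A.Z was 1.08-fold above it (0.11).

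TIPIN, which binds TIMELESS at the fork, had 2.45 in DKO, 2.04 in DKO+H2A.Z.1, 2.11 in DKO+5KR-H2A.Z, 2.02 in DKO+H2A-H2A.Z and 1.75 in WT. Each derived line was above WT and DKO was furthest, 1.62-fold above WT (0.70, or 0.55 relative to all genes). DKO+H2A.Z.1 was 1.33-fold below DKO (-0.42, or -0.21 relative). Over the alternatives the difference between DKO and WT ran from 0.20 to 0.88, and it was 0.51 in the authors' value table. The gene had 1 probe.

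**Figure D3:**
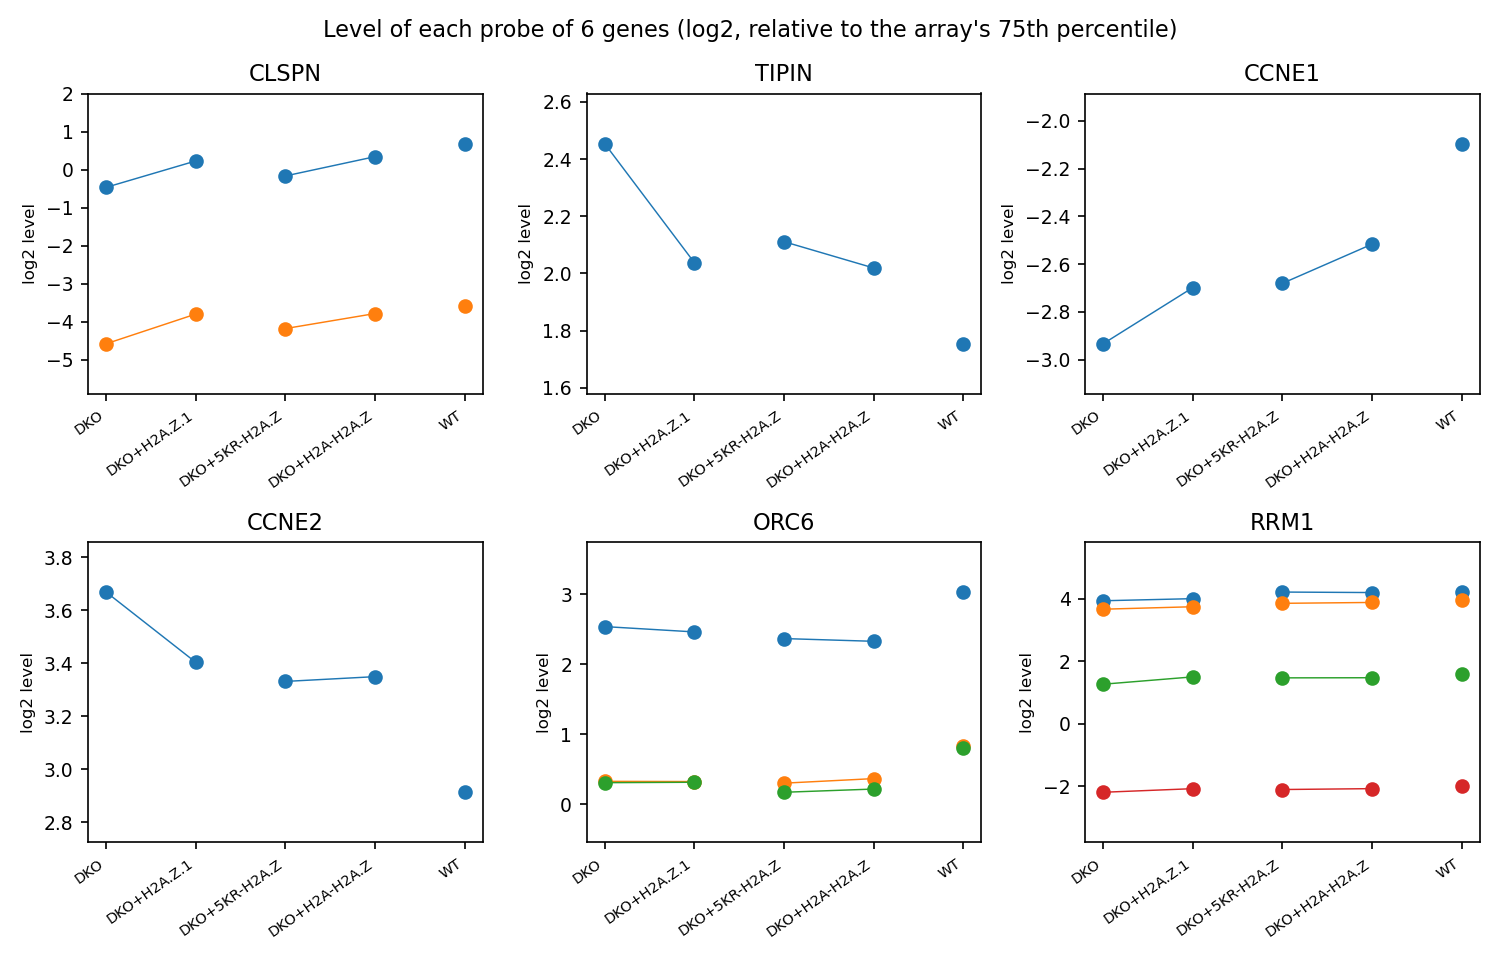
Log2 level of each probe of 6 genes on the 5 arrays, relative to the 75th percentile of the array; each colour is 1 probe, lines join DKO with DKO+H2A.Z.1 and the mutant lines with each other, and each panel has its own axis range. Both CLSPN probes are lowest in DKO, all 3 ORC6 probes are highest in WT, and CCNE1 and CCNE2 run in opposite directions between the derived lines and WT.

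Of the genes of nucleotide supply, RRM1, the large subunit of ribonucleotide reductase, was lower in DKO than in WT on all 4 probes. Its level was 3.93 in DKO, 3.998 in DKO+H2A.Z.1, 4.21 in DKO+5KR-H2A.Z, 4.19 in DKO+H2A-H2A.Z and 4.20 in WT. The 4 probes gave -0.32 to -0.21 for DKO minus WT, and the relative difference of the main probe was -0.42. TK1, the S-phase thymidine kinase, had 2.36 in DKO, 2.20 in DKO+H2A.Z.1, 2.40 in DKO+5KR-H2A.Z, 2.15 in DKO+H2A-H2A.Z and 2.10 in WT, which is 0.11 for DKO minus WT relative to all genes.

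The 2 E-type cyclins ran opposite to each other. CCNE1 had -2.93 in DKO, -2.70 in DKO+H2A.Z.1, -2.68 in DKO+5KR-H2A.Z, -2.52 in DKO+H2A-H2A.Z and -2.10 in WT. CCNE2 had 3.67 in DKO, 3.40 in DKO+H2A.Z.1, 3.33 in DKO+5KR-H2A.Z, 3.35 in DKO+H2A-H2A.Z and 2.91 in WT. WT was above the 4 lines derived from the knockout for CCNE1 and below them for CCNE2, with DKO furthest from WT and the mutant lines on the other slide. For CCNE1 the derived lines themselves spread from -2.93 in DKO to -2.52 in DKO+H2A-H2A.Z, about as wide as the gap to WT. CCNE1 was 1.79-fold lower in DKO than in WT (-0.84, or -0.99 relative to all genes) and DKO+H2A.Z.1 lay 1.52-fold below WT (-0.60, or -0.57 relative). CCNE2 was 1.69-fold higher in DKO than in WT (0.75, or 0.60 relative) and 1.41-fold higher in DKO+H2A.Z.1 than in WT (0.49, or 0.52 relative). Over the alternatives the difference between DKO and WT ran from -1.34 to -0.64 for CCNE1 and from 0.26 to 0.94 for CCNE2, with the smallest value of CCNE2 under spike-in scaling. The relative difference of CCNE2 went down to 0.50, which is under 1.5-fold. Each cyclin had 1 probe. CCNE1 lay in the dimmest class of genes, where the median of all genes for DKO minus WT was -0.11, against 0.16 in the brightest class. The part of brightness in the contrast of the cyclins was not tested.

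E2F1 had 5.61 in DKO, 5.46 in DKO+H2A.Z.1, 5.65 in DKO+5KR-H2A.Z, 5.50 in DKO+H2A-H2A.Z and 5.70 in WT. Its 3 probes gave -0.23 to -0.10 for DKO minus WT, or -0.25 relative to all genes on the main probe. SLBP, which binds the stem-loop of replication-dependent histone mRNAs, had 3.41 in DKO, 3.31 in DKO+H2A.Z.1, 3.55 in DKO+5KR-H2A.Z, 3.51 in DKO+H2A-H2A.Z and 3.38 in WT. The values of SLBP lay within 0.24 of each other, and its probes disagreed in sign between the mutant lines and DKO+H2A.Z.1.

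In the line labelled DKO+H2A.Z.1, which was not separated from DKO on the H2AFZ probes, the set stood higher than in DKO relative to all genes. For DKO+H2A.Z.1 minus DKO the median of the 21 genes was -0.05 against -0.21 over all 4343 genes, or 0.16 relative to that median of all genes, and 16 of 21 lay above the median of all genes. At 2-fold 0 of 21 were higher, where 8.08% of all genes were, and 0 of 21 lower, where 2.65% were; at 1.5-fold 1 was higher (CLSPN), where 13.9% were, and 0 were lower, where 12.4% were. The DKO array also enters DKO minus WT, so that a low value on it moves both comparisons. On the main probe and in the main processing, after CLSPN (0.90) the highest relative values were those of CCNE1 (0.44), GINS1 (0.44), MCM5 (0.40) and MCM6 (0.32), and the lowest those of MCM2 (-0.24), TIPIN (-0.21) and FEN1 (-0.19). This order depended on the processing: CCNE1 went down to 0.12, MCM2 came to -0.01, and PRIM2, at 0.22 here, ran from 0.06 to 0.70. After each array was centred on all genes, DKO was the lowest of DKO, DKO+H2A.Z.1 and WT for 13 of 21 genes, where it was for 39.7% of all genes, and the highest for 5 (MCM2, MCM3, CCNE2, FEN1 and TIPIN), where it was for 42.3%. These counts depended on the centring: without it DKO was lowest for 7 of 21 (27.7% of all genes) and highest for 8 (57.8%). Over all 5 centred arrays, which span both slides, DKO was lowest for 12 of 21 (34.0% of all genes) and highest for 4 (34.7%), while WT was highest for 8 (22.8%) and lowest for 3 (20.2%). On the centred levels the genes highest in WT were ORC6, PCNA, RFC3, RFC4, CLSPN, RRM1, CCNE1 and E2F1, and those lowest in WT were TIPIN, TK1 and CCNE2. For RFC3 and RFC4 the lead of WT over DKO+H2A-H2A.Z was within the spread of replicate spots (0.061 against 0.043 and 0.099 against 0.081). Without the centring RFC4 was highest in that mutant line (4.323, against 4.314 in WT). PCNA (4.557 against 4.538), RRM1 (4.209 against 4.203) and RFC3 (1.225 against 1.165) were then highest in DKO+5KR-H2A.Z.

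In DKO+H2A.Z.1 minus WT the middle 50% of the 21 differences spanned 0.35, against 0.23 in DKO+H2A.Z.1 minus DKO and 0.40 in DKO minus WT. Over all genes the same spans were 0.33, 0.60 and 0.73, so the 21 were narrower than all genes in the comparisons with DKO. Mitosis genes were narrower still, with 0.14, 0.18 and 0.30. The other replication genes had 0.20, 0.45 and 0.50, and the other G1/S regulators 0.36, 0.38 and 0.34. For DKO minus WT the median absolute relative difference was 0.23 in the brightest class of genes and 0.40 in the dimmest, which held 1 of the 21. The part of brightness in these spans was not tested. The 21 were also narrower than all genes wherever a mutant line was compared, so the narrower span was not particular to the DKO array. Between the mutant lines the span was 0.17, against 0.32 over all genes. Across slides, with DKO+H2A.Z.1 subtracted, it was 0.22 for DKO+5KR-H2A.Z (0.30 over all genes). For DKO+H2A-H2A.Z it was 0.25 (0.28 over all genes). The median of the 21 genes was -0.08 against -0.04 over 4424 genes; 0 of 21 were 2-fold higher (1.94% of all genes) and 0 of 21 were 2-fold lower (3.91%). At 1.5-fold 1 was lower (CCNE1), where 8.66% of all genes were, and 0 were higher, where 4.29% were. The relative differences furthest from 0 were those of CCNE1 (-0.57), ORC6 (-0.53), CCNE2 (0.52), CLSPN (-0.42), TIPIN (0.32) and PRIM2 (0.31).

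Between the mutant lines, DKO+5KR-H2A.Z set against DKO+H2A-H2A.Z had a median of 0.09 for the 21 genes against 0.05 over 4362 genes. At 2-fold 0 of 21 were higher (1.63% of all genes) and 0 lower (2.15%); at 1.5-fold 0 were higher (4.42%) and 0 lower (5.59%). CLSPN (-0.56 relative to all genes), MCM3 (0.31), PRIM2 (0.22), CCNE1 (-0.21) and TK1 (0.21) were furthest from 0. PRIM2 rested on probes that gave 0.05 to 0.37.

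Against DKO+H2A.Z.1, across slides, the mutant lines had medians of 0.07 for DKO+5KR-H2A.Z (0.09 over 4345 genes) and 0.01 for DKO+H2A-H2A.Z (0.04 over 4368 genes). In DKO+5KR-H2A.Z, 0 of 21 were 2-fold higher (1.91% of all genes) or lower (0.783%), and 0 were 1.5-fold higher (6.4%) or lower (3.15%). In DKO+H2A-H2A.Z, 0 of 21 were 2-fold higher (1.76%) or lower (1.12%), and 0 were 1.5-fold higher (6.34%) or lower (2.43%). The range of the 21 differences was -0.39 (CLSPN) to 0.38 (MCM3) in DKO+5KR-H2A.Z and -0.27 (ORC1) to 0.21 (SLBP) in DKO+H2A-H2A.Z. These are values of the main probes. On their other probes CLSPN gave -0.38, MCM3 0.275 and 0.14, and SLBP -0.01, while ORC1 had 1 probe.

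Other genes of the pathway were described from lists that hold none of these 21. Of 26 other replication genes, 1 was 2-fold lower in DKO than in WT (11.1% of all genes) and 0 were higher (4.21%), with a median of 0.09 relative to all genes. That gene was ORC3, another subunit of the origin recognition complex, with 0.45 in DKO, 1.67 in DKO+H2A.Z.1, 1.37 in DKO+5KR-H2A.Z, 1.68 in DKO+H2A-H2A.Z and 1.71 in WT. DKO stood alone as the low array: it was 2.40-fold below WT, DKO+H2A.Z.1 was 2.34-fold above DKO, and all 3 probes differed by more than 2-fold in both comparisons. At 1.5-fold, 3 of 26 were lower in DKO than in WT, where 17.2% of all genes were, and 1 was higher, where 14.1% were. Besides ORC3 these genes were named after their values were seen. ORC2 and RFC2 were lower (1.65-fold and 1.55-fold). ATAD5, which unloads PCNA, was higher (1.67-fold on its main probe, with 0.37 on the log2 scale on the other). For DKO+H2A.Z.1 minus DKO, 2 of 26 were 1.5-fold higher, where 13.9% of all genes were, and 0 were lower, where 12.4% were. RFC2, a clamp loader subunit, was 1.83-fold higher in DKO+H2A.Z.1 than in DKO, with 0.84 to 0.88 on its 3 probes.

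Of 19 other G1/S regulators compared, 0 were 2-fold apart between DKO and WT, with a median of 0.05 relative to all genes and 14 of 19 above the median of all genes. At 1.5-fold, 2 of 19 were higher in DKO, where 14.1% of all genes were, and 1 was lower, where 17.2% were. These genes were likewise named after their values were seen. CDKN1A, an inhibitor of cyclin-dependent kinases, was 1.69-fold higher in DKO. SKP2, the substrate receptor of a ubiquitin ligase that targets inhibitors of these kinases, was 1.62-fold higher. E2F6, a repressor of the E2F family, was 1.65-fold lower. Relative to all genes these folds were 1.52 for CDKN1A, 1.46 for SKP2 and 1.83 for E2F6. The folds of these genes and of ATAD5 are not given under the processing alternatives, 4 of which brought CCNE2 and TIPIN under 1.5-fold. DKO+H2A.Z.1 lay 2.07-fold below DKO for CDKN1A on its only probe, with -3.995 in DKO, -5.04 in DKO+H2A.Z.1, -4.51 in DKO+5KR-H2A.Z, -5.08 in DKO+H2A-H2A.Z and -4.75 in WT. All of these levels are dimmer than those of CCNE1, which lay in the dimmest class. In that comparison 1 of 19 was 2-fold lower, where 2.65% of all genes were, and 0 were higher, where 8.08% were. At 1.5-fold 2 of 19 were lower, where 12.4% of all genes were, and 1 was higher, where 13.9% were. For SKP2, DKO+H2A.Z.1 lay 1.59-fold below DKO, with -0.72 to -0.67 on its 3 probes. Relative to all genes DKO+H2A.Z.1 lay 1.79-fold below DKO for CDKN1A and 1.38-fold below it for SKP2. MYB, across slides, was lower in DKO+5KR-H2A.Z than in DKO+H2A.Z.1 by 1.65-fold on the main probe (-0.72), with -0.62, -0.58 and -0.40 on the other 3, of which only the first is past 1.5-fold. There 1 of 19 was 1.5-fold lower, where 3.15% of all genes were, and 0 were higher, where 6.4% were.

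Mitosis genes were described for comparison. Their median was 0.17 relative to all genes for DKO minus WT, with 18 of 25 genes above the median of all genes. For DKO+H2A.Z.1 minus DKO it was -0.09, with 7 of 25 above the median of all genes, where the replication genes had -0.19 (8 of 21 above) and 0.16 (16 of 21 above). The medians of all genes in the brightest class were 0.16 and -0.16 in these 2 comparisons, so values like those of the mitosis genes were not particular to them. In which classes the mitosis genes lay was not analysed here, and the difference between the sets was not tested. Over the 5 arrays the centred levels of a gene spanned 0.32 at the median for the 21 replication genes, 0.34 for the mitosis genes, 0.35 for the other replication genes, 0.43 for the other G1/S regulators and 0.49 for all 4121 genes well above background on every array. In the brightest class of genes, where 10 of the 21 lay, the median span was likewise 0.34.

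**Figure D4:**
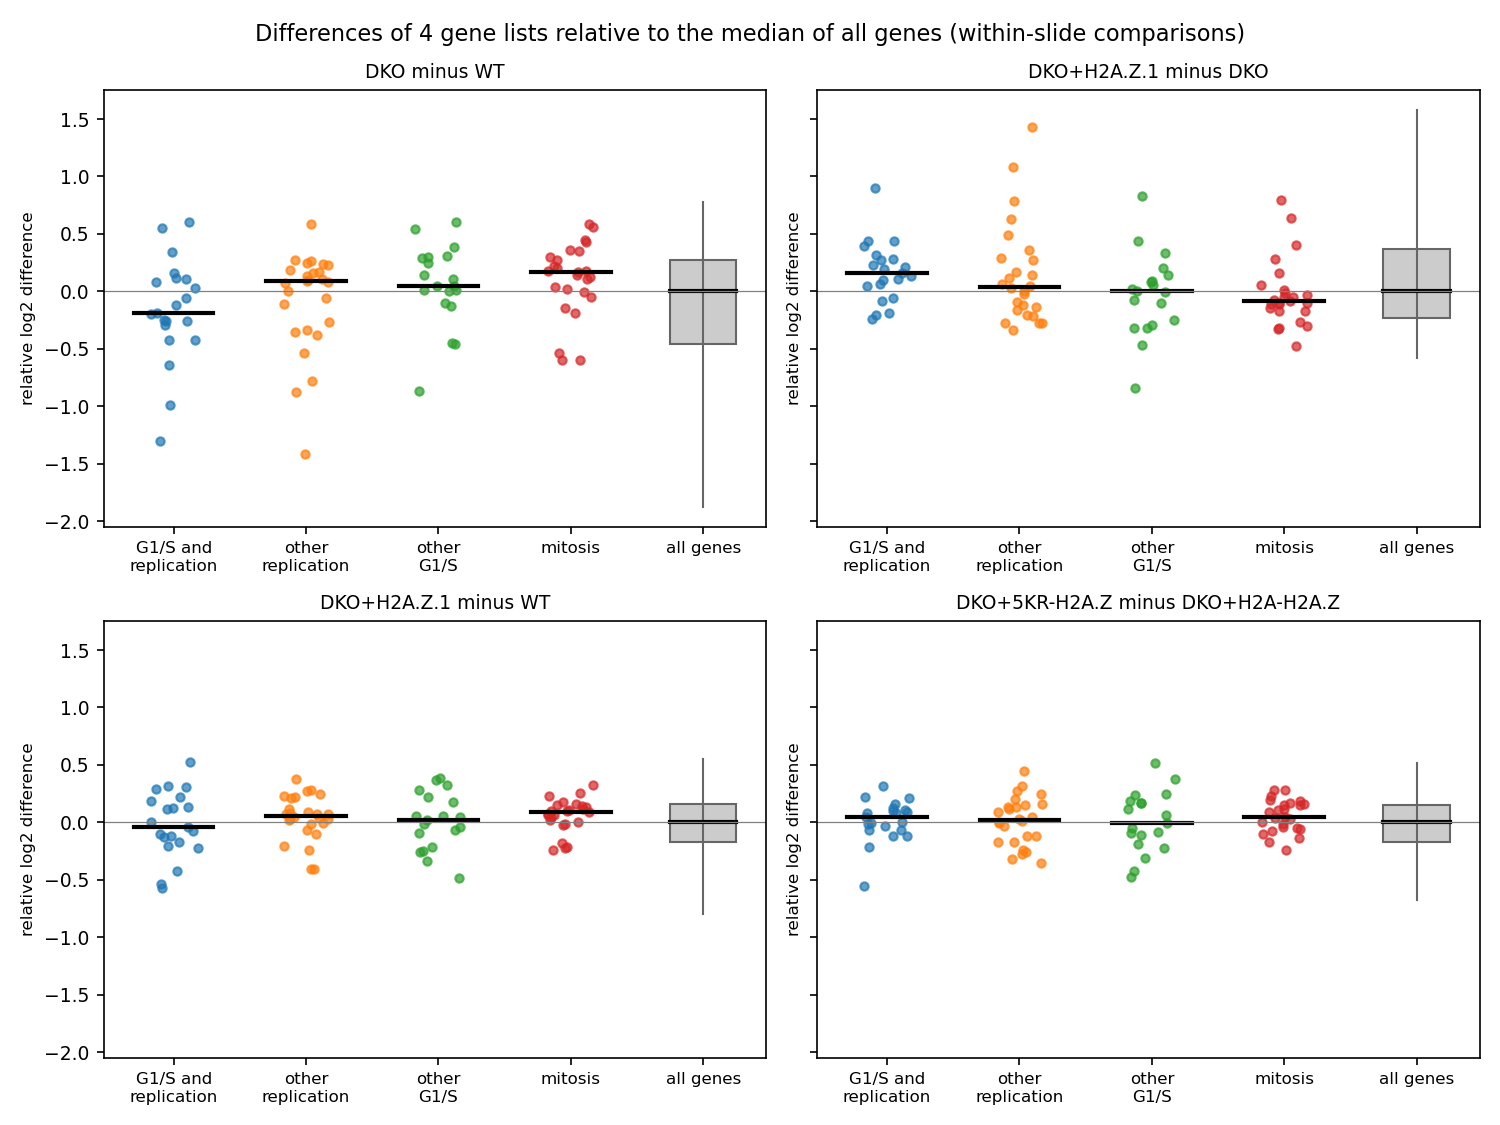
Log2 differences relative to the median of all genes in the 4 comparisons within a slide, for the 21 replication genes, other replication genes, other G1/S regulators and mitosis genes; each point is a gene, black bars are medians, and the grey box and line give the central 50% and 90% of all genes. The replication genes have a median of -0.19 in the DKO minus WT panel, against 0.16 in the panel of DKO+H2A.Z.1 and DKO.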

How the data were processed

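The deposited scanner files hold, per the file headers, a background-subtracted processed signal for each spot, a linear fluorescence intensity written by Agilent Feature Extraction 11.5.1.1. The authors' value table holds an intensity equal to that signal times 1 constant per array (1.03 to 1.23). Here log2 values were taken and scaled by subtracting the 75th percentile over non-control spots of the array. Spots marked as non-uniform or outliers were left out and spots of 1 probe averaged. Probes were named through their RefSeq accession, without version, in a gene table of assembly GRCg7b (5381 genes), since the files used hold no gene name. Each gene takes its brightest probe by mean level, and entered a comparison when 1 or more of its probes passed the scanner's well-above-background mark on either array. The number of arrays, 1 per line, limits the precision.

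The genes and lists were chosen with earlier results of these data known. Named genes were those at least 1.5-fold apart relative to all genes within a slide, the extremes of each role, and genes of the other lists past 2-fold, with some past 1.5-fold added after their values were seen. Counting was tested on simulated data with the same noise for every spot, whatever its brightness. That test checks the counting step and cannot show how reliable the 1.5-fold and 2-fold calls on these arrays are. Alternatives are given in the closing part. Promoter motifs were not analysed here. 1 cell type marker is not reported here. Calculations used Python 3.11.15, numpy 2.4.6, pandas 2.3.3, R 4.3.3 and limma 3.58.1.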

Additional observations from a re-analysis of the deposited data

How the results depend on the processing

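The medians of the 21 genes relative to all genes moved by less than the spread of replicate spots (0.11 for a difference) under normexp on the median spot and background signal with an offset of 50, quantile normalization, cyclic loess, median centring, scaling to 8 spike-in probes, the authors' value table, stricter and no filters on dim probes, and the median over a gene's probes; median centring, spike-in scaling and the authors' table shift whole arrays and could not move them. They ranged from -0.24 to -0.19 for DKO against WT and from 0.16 to 0.22 for DKO+H2A.Z.1 against DKO. Counts at 2-fold for DKO minus WT were 1 in the main processing, 0 with median centring, and 2 with spike-in scaling and with the authors' table. For DKO+H2A.Z.1 minus DKO spike-in scaling gave 1 in place of 0. With a threshold of 1.5-fold the count was 4 for DKO minus WT, 1 for DKO+H2A.Z.1 minus DKO and 1 for DKO+H2A.Z.1 minus WT. At 1.5-fold for DKO minus WT, 2 were higher and 2 lower in the main processing, 0 higher and 9 lower with spike-in scaling, 0 and 3 with quantile normalization, cyclic loess and the authors' table, and 3 and 2 with median centring. For DKO+H2A.Z.1 minus DKO, 7 were higher and 0 lower with spike-in scaling, and 0 higher and 1 lower (MCM2) with median centring. For DKO+H2A.Z.1 minus WT, CCNE1 was under 1.5-fold with normexp, median centring, spike-in scaling and the authors' table. With spike-in scaling CLSPN was 1.5-fold lower in DKO+5KR-H2A.Z than in DKO+H2A.Z.1 and than in DKO+H2A-H2A.Z. Spike-in scaling put the median of all genes at -0.35 for DKO minus WT, and at 0.34 for DKO+H2A.Z.1 minus DKO; median centring put them at 0.33 and -0.35. Taking differences relative to the median of all genes, chosen after seeing the data, left the counts at 2-fold as they were. Naming through the RefSeq accession alone was planned as an alternative and is the main naming here. No paired analysis was possible because each line has 1 array.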
